A study of Mus musculus with 8 samples.

Results

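The 9 genes described here encode transcription factors that direct CD8 T cells toward effector or memory fates: Tbx21, Eomes, Zeb2, Prdm1, Id2, Bhlhe40, Irf4, Irf8 and Tox. They were chosen by name from the 11723 genes of the deposited expression table, all 9 were found by Entrez identifier, and all 9 passed the filter on low values. Their levels were compared between CD8 T cells of mice lacking interleukin-2 (IL-2-KO) and of wild-type mice (WT), with 4 sequencing libraries of each. All mice were of the inbred BALB/c strain and 12 days old, and peripheral lymph nodes gave the cells, taken by flow cytometry as a bulk CD8 population. WT replicates 1 to 4 came from 115, 28.7, 1.3 and 1.3 M (1e6) sorted cells of 5, 5, 3 and 2 pooled mice. The 115 M is a high yield for lymph nodes of such young mice, and it is used as labelled. IL-2-KO replicates 1 to 4 came from 26.7, 42.6, 1.1 and 0.4 M cells, and their labels say nothing of pooling. The design text of the series also mentions spleen and heterozygous control animals, which the sample labels do not, so WT means here what the sample labels call WT. Single libraries are called WT1 to WT4 and KO1 to KO4 by their replicate numbers. Further points limit the groups: the labels do not name the mutant allele, the sort gate, or the subsets within the CD8 gate, and a bulk library cannot tell a change in the number of cells that express a gene from a change in RNA per cell.

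Naive CD8 T cells become cytotoxic effector cells after antigen recognition, and a few transcription factors set how far they go. T-bet (Tbx21) and Eomes are paralogous T-box factors that activate genes of cytotoxic function, with T-bet linked to terminal effector cells and Eomes to memory cells and, at high level, to exhausted ones. Zeb2 and Blimp-1 (Prdm1) are repressors that promote terminal differentiation, Id2 blocks E proteins and so favours effector over memory fate, and Bhlhe40 is a stress- and activation-responsive repressor. Irf4 and Irf8 belong to the interferon regulatory factors and bind with BATF or PU.1, and Tox sustains exhausted cells under chronic stimulation. Interleukin-2 itself, through STAT5, is a known inducer of Blimp-1 and of effector differentiation in T cells, and also maintains the regulatory T cells that restrain autoimmunity.

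Promoter sequence was examined because several of the genes moved together. RefSeq promoters of build GRCm38.p6, 250 bases before to 50 after a start, were matched for 7 of the 9 genes and gave 11 windows. Of these, 4 are printed 5′ to 3′ as the 250 bases before the start, on the strand of the gene. They belong to both T-box genes and to the pair of interferon regulatory factors, which carry most of the called differences below. Capitals mark every match to 6 short motifs, searched on both strands.
Tbx21, chr11:97115332-97115581, minus strand: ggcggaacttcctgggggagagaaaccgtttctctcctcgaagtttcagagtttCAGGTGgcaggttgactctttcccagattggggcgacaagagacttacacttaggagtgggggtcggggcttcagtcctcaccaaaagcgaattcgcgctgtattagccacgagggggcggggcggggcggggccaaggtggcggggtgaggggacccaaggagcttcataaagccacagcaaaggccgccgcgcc
Eomes, chr9:118477939-118478188, plus strand: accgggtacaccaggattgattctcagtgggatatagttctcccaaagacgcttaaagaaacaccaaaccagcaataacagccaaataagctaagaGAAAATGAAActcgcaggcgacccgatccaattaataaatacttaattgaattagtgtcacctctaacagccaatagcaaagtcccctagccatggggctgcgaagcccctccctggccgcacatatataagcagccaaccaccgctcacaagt
Irf4, chr13:30748983-30749232, plus strand: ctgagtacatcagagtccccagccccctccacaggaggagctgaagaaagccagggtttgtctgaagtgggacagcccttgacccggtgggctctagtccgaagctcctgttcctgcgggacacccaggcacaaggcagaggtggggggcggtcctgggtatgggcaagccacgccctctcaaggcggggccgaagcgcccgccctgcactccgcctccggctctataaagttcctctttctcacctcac
Irf8, chr8:120736108-120736357, plus strand: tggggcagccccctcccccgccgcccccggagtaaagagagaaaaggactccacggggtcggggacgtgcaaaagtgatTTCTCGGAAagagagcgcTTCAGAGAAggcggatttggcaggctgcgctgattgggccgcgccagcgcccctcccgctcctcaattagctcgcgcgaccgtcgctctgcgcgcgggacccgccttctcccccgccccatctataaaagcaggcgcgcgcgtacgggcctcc
The Irf8 window held 2 matches to the STAT palindrome TTCNNNGAA, at -171 to -163 and -153 to -145 from the start. This motif was in 8.30% of 32851 mouse promoter windows of the same length, and 3 of the 11 windows of these genes held it, 1 of Irf8 and 2 overlapping windows of Zeb2 that share a single match. The Eomes window held the paired interferon regulatory factor motif (GAAA, any 2 bases, GAAA) at -154 to -145, which 3.44% of all windows hold. The Tbx21 window held CACCTG, the box Zeb proteins bind, on its other strand at -196 to -191, a short motif present in 20.2% of all windows. A Prdm1 window and an Irf8 window not printed here also held it, so 3 of the 11 did. The Irf4 window held none of the 6. The AP-1 motif TGANTCA, in 7.81% of all windows, was found in a Prdm1 and a Zeb2 window. The T-box motif GGTGTGA (3.98% of all windows) and CACGTG (7.15%), the box of Bhlhe40, were in none of the 11. None of the motifs contains another. These are matches of letters and say nothing about binding in these cells.

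The libraries held 11.9 to 18.4 M counts, so 1 count per M (CPM, scaled by the authors with TMM factors) stood for 11.9 to 18.6 counts. The Il2 transcript was at 5.65 to 6.25 CPM in WT and 4.25 to 8.42 in IL-2-KO, so its level does not check the genotype labels. The CD8 coreceptor gene Cd8a, at 1479 to 1979 CPM in all 8 libraries, matched the labelled cell type. WT2 and KO3 stood apart from the rest. The macrophage gene Lyz2 was at 40.0 CPM in the former and 296 in the latter, against 0.23 to 2.85 in the other 6 libraries. Cd74, a gene of antigen-presenting cells, was at 101.5 and 279 CPM there, against 1.15 to 13.5, and Cd4 at 38.6 and 45.5 against 0.46 to 2.48. The 4 monocyte and macrophage markers analysed of a list of 11 (Lyz2, Itgam, Cd68 and Tyrobp) summed to 9.83 to 13.0 CPM in the other WT libraries and 74.9 in WT2. In IL-2-KO they summed to 15.5 to 20.3 CPM and, in replicate 3, to 371. None of these 4 was at 0 in any library, while the other 7, Csf1r and Cd14 among them, were not analysed here. Values for the 9 genes, their ratios and the gene lists are therefore also given without these 2 libraries.

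In all, 5 of the 9 transcription factors were higher in IL-2-KO than in WT and none was lower. The 5 were Tbx21, Eomes, Bhlhe40, Irf4 and Irf8, at a Benjamini-Hochberg adjusted p under 0.05 in limma, a linear model fitted to log2(CPM + 0.5) over 11530 genes. Over all genes tested, 19.2% passed this threshold, 11.1% as higher and 8.03% as lower. The median log2 difference of the 9 was 1.28, and that of all genes tested was -0.01. In 4 of the 9 every IL-2-KO library lay above every WT library, which held for 12.9% of all genes. Without WT2 and KO3, 7 of the 9 were higher, Zeb2 and Prdm1 in addition, against 10.7% of all genes in that fit (18% in either direction). Each of these 7 then had every IL-2-KO value above every WT value, as 20.1% of all genes did. Id2 and Tox did not pass in either fit. In the plot of the 9 genes by library, the 5 that passed separate the groups or nearly so, and 4 panels show the same 2 libraries above their group.

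**Figure D1:**
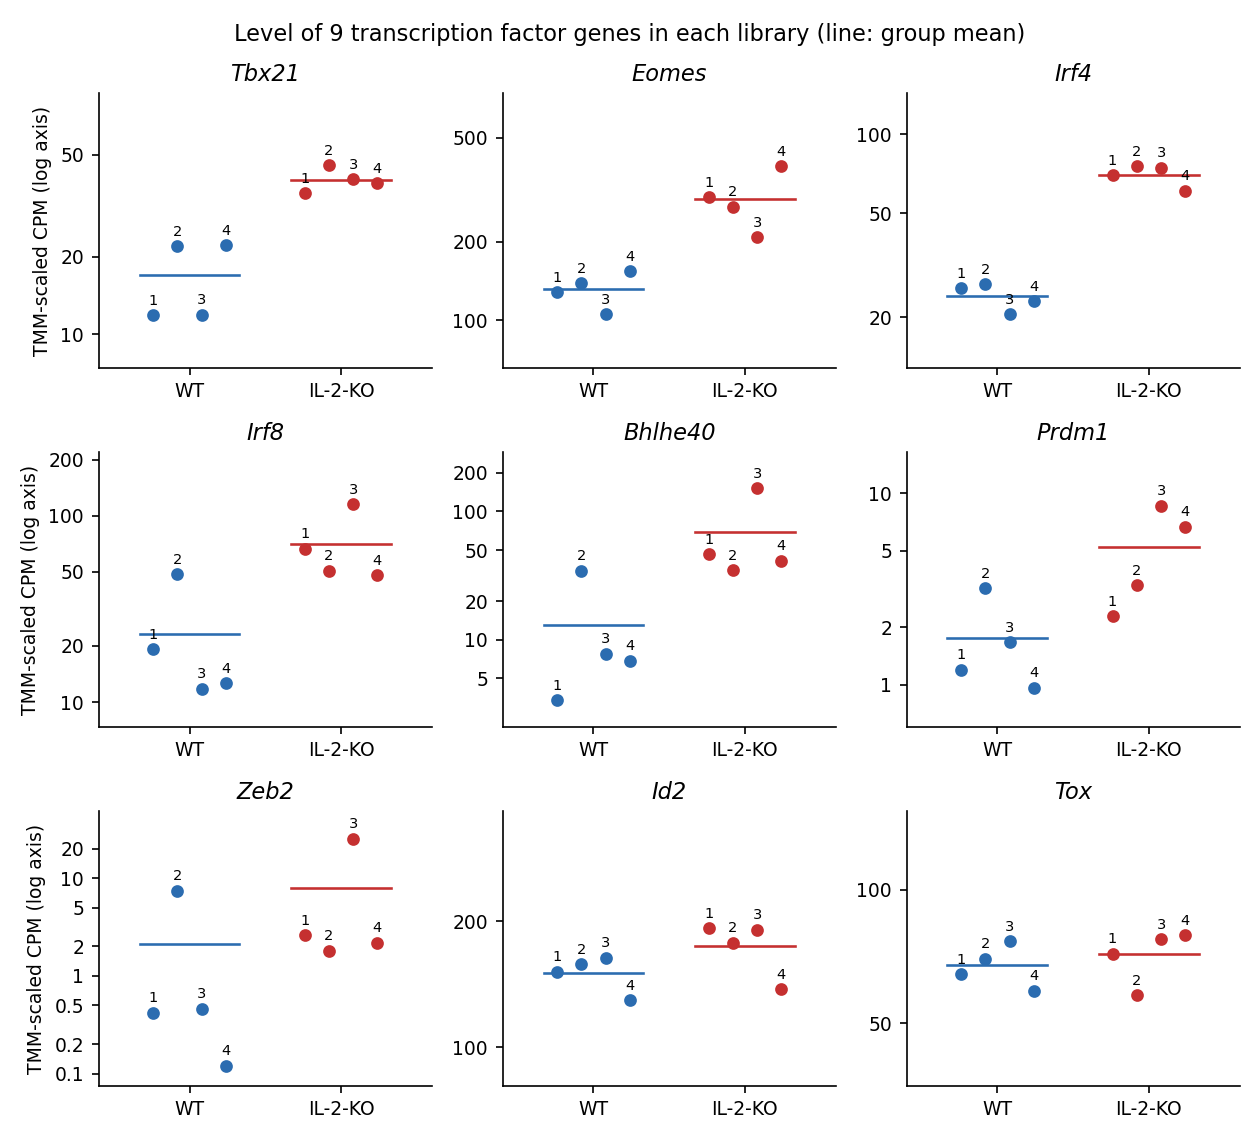
Level of each of the 9 transcription factor genes in each library, in TMM-scaled CPM on a log axis, with replicate numbers beside the points and a line at each group mean. WT2 and KO3 lie above the rest of their groups for Zeb2, Bhlhe40, Irf8 and Prdm1. Irf4, Eomes, Tbx21 and, narrowly, Bhlhe40 separate the groups without overlap.

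Both T-box genes were higher in IL-2-KO, each in all 4 libraries. Tbx21 (chromosome 11, 97098007 to 97115331, GRCm38) was at 11.9, 22.0, 11.9 and 22.3 CPM in WT replicates 1 to 4 and at 35.5, 45.6, 40.2 and 38.8 CPM in IL-2-KO replicates 1 to 4. The lowest IL-2-KO library was above the highest WT library, and the WT libraries fell into a lower and a higher pair. On the log2(CPM + 0.5) scale Tbx21 was 2.41-fold higher in IL-2-KO (95% interval 1.73 to 3.36, limma adjusted p = 0.00285 by Benjamini-Hochberg). Eomes (chromosome 9, 118478186 to 118486132) was at 128, 138, 105 and 154 CPM in WT and at 296, 272, 208 and 390 CPM in IL-2-KO. The groups did not overlap, and KO3 was the lowest of its group. Eomes was 2.18-fold higher (95% interval 1.66 to 2.87, limma adjusted p = 0.00184 by Benjamini-Hochberg). Leaving out WT2 and KO3 gave 2.65-fold for Tbx21 and 2.47-fold for Eomes, with limma adjusted p = 0.00453 and 0.00133 by Benjamini-Hochberg.

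The balance between Eomes and T-bet did not differ detectably between the genotypes. The ratio of Eomes to Tbx21 in CPM was 10.8, 6.28, 8.81 and 6.93 in WT replicates 1 to 4 and 8.36, 5.97, 5.17 and 10.1 in IL-2-KO replicates 1 to 4. Libraries of both genotypes spread over the same range. The mean ratio was 8.20 ± 2.03 (SD, n = 4) in WT and 7.39 ± 2.24 (SD, n = 4) in IL-2-KO. Taken as a log2 ratio with 0.5 added to each value, it was 0.906-fold in IL-2-KO, and the 97.1% interval from inverting the permutation test ran from 0.493 to 1.61. An exact two-sided permutation test over the 70 assignments gave p = 0.571 (0.754 after Benjamini-Hochberg adjustment over 12 ratios). It was 0.932-fold without WT2 and KO3. Ratios of either factor to Tcf7, which encodes TCF-1, a factor of naive and memory cells, separated the groups. Tbx21 to Tcf7 was 0.00932 to 0.0195 in WT and 0.0256 to 0.0370 in IL-2-KO, a 2.35-fold difference (2.53-fold without WT2 and KO3). Eomes to Tcf7 spanned 0.0821 to 0.123 in WT and 0.191 to 0.300 in IL-2-KO, a 2.13-fold difference (2.36-fold without them). Each gave p = 0.0286 by the exact permutation test, the smallest that 4 against 4 can give, and 0.0857 after adjustment over the 12 ratios, so neither passed. Tcf7 itself was at 1222 ± 79.0 CPM in WT and 1256 ± 125.2 in IL-2-KO (SD, n = 4).

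**Figure D2:**
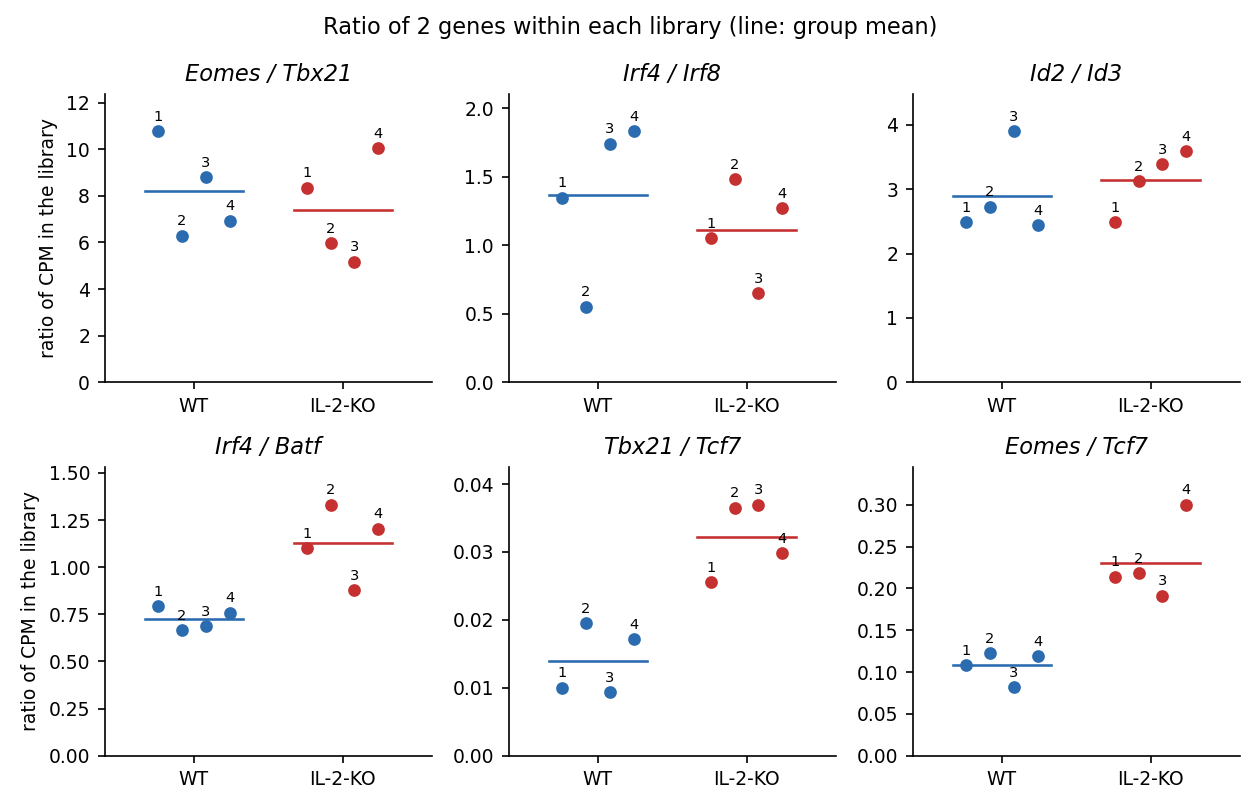
Per-library ratios between transcription factor genes in WT and IL-2-KO, on linear axes from 0, with replicate numbers beside the points and a line at each group mean. Eomes to Tbx21 overlaps between the genotypes, while Tbx21 to Tcf7, Eomes to Tcf7 and Irf4 to Batf do not.

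The interferon regulatory factor genes Irf4 and Irf8 were both higher in IL-2-KO, and Irf8 had the wider spread within each group. Irf4 (chromosome 13, 30749233 to 30766981), whose product is induced in proportion to T cell receptor signal strength, was at 25.9, 26.8, 20.6 and 23.1 CPM in WT and at 69.9, 75.4, 74.7 and 61.0 CPM in IL-2-KO. The gap between the groups was wider than the range within either. The difference had the smallest adjusted p of the 9 genes (2.88-fold, 95% interval 2.44 to 3.404, limma adjusted p = 5.41e-05 by Benjamini-Hochberg) and was past the threshold in each of the 21 alternative fits. Irf8 (chromosome 8, 120736358 to 120756694), a factor of dendritic cells, monocytes and B cells that activated CD8 T cells also express, was at 19.2, 48.7, 11.8 and 12.6 CPM in WT and at 66.5, 50.8, 115 and 48.1 CPM in IL-2-KO. WT2 was above 1 IL-2-KO library, so the groups overlapped. Irf8 was 3.33-fold higher (95% interval 1.74 to 6.40, limma adjusted p = 0.0178 by Benjamini-Hochberg), with adjusted p = 0.0604 without WT3 and 0.0571 without WT4. Without WT2 and KO3 the groups no longer overlapped, at 14.5 ± 4.07 and 55.1 ± 9.96 CPM (SD, n = 3), and the fold was 3.75 (limma adjusted p = 4.93e-04 by Benjamini-Hochberg). Irf8 in WT2 was 3.87 times the median of the other WT libraries, and in KO3 it was 2.27 times that of the other IL-2-KO libraries, the libraries with the high Lyz2 and Cd74 levels. In the other libraries Cd74 was at 1.15 to 3.11 CPM in WT and 3.97 to 13.5 in IL-2-KO. There the dendritic cell markers Itgax and Zbtb46 were also higher in IL-2-KO without overlap, Itgax at 1.63 to 2.61 and 4.25 to 6.78 CPM. Xcr1, Cst3 and Wdfy4 overlapped, and Ccr9 was lower. How far such cells gave the Irf8 difference was not tested.

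The ratio of Irf4 to Irf8 was 1.35, 0.550, 1.74 and 1.83 in WT and 1.05, 1.48, 0.649 and 1.27 in IL-2-KO. It was lowest in the same 2 libraries, 1 of each genotype, and an exact permutation test gave p = 0.600 for the genotypes (0.754 after adjustment over the 12 ratios). The ratio was 0.865-fold in IL-2-KO, and 0.781-fold without those libraries. Batf, whose product pairs with IRF4 on composite DNA elements, was 1.88-fold higher in IL-2-KO (limma adjusted p = 0.00313 by Benjamini-Hochberg). The ratio of Irf4 to Batf lay between 0.666 and 0.792 in WT and between 0.878 and 1.33 in IL-2-KO, without overlap. This was a 1.53-fold difference at the smallest possible exact permutation p of 0.0286, and it did not pass after adjustment (0.0857). The value without WT2 and KO3 was 1.61-fold.

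Bhlhe40, Prdm1 and Zeb2 also varied widely within groups. Bhlhe40 (chromosome 6, 108660629 to 108666925) was at 3.35, 34.5, 7.77 and 6.87 CPM in WT and at 46.5, 35.0, 152 and 41.1 CPM in IL-2-KO. WT2 nearly reached the lowest IL-2-KO library, yet the groups did not overlap. Bhlhe40 was 5.99-fold higher (95% interval 2.24 to 16.0, limma adjusted p = 0.0192 by Benjamini-Hochberg), the largest fold of the 9. The call was lost when WT1, WT3 or WT4 was left out, at 4.43-, 5.71- and 5.50-fold with adjusted p = 0.0545, 0.0591 and 0.0575. Without WT2 alone the fold was 9.24, and without KO3 alone it was 4.32. Without WT2 and KO3, Bhlhe40 was at 6.00 ± 2.34 CPM in WT and 40.9 ± 5.77 CPM in IL-2-KO (SD, n = 3), a 6.66-fold difference with limma adjusted p = 3.95e-04 by Benjamini-Hochberg.

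Prdm1 (chromosome 10, 44437174 to 44528558) was low throughout, at 1.20, 3.20, 1.67 and 0.965 CPM in WT and at 2.28, 3.32, 8.60 and 6.71 CPM in IL-2-KO. These levels rest on 16 to 38 counts in WT and 34 to 160 in IL-2-KO. The groups overlapped through WT2, and the fitted 2.43-fold difference did not pass (95% interval 1.30 to 4.54, limma adjusted p = 0.0514 by Benjamini-Hochberg). It passed without WT2 (adjusted p = 0.0252), without KO1 (0.0216), and without both WT2 and KO3 (2.42-fold, 0.0334). Of 6 plasma cell markers, 2 were analysed. Derl3 was 2.76-fold higher in IL-2-KO (limma adjusted p = 0.0125 by Benjamini-Hochberg), and Xbp1 had a 1.11-fold difference that did not pass (0.394). Their sum was 36.1 to 48.8 CPM in WT, highest in WT2, and 43.6 to 57.6 in IL-2-KO, highest in KO3. The part of such cells in the Prdm1 level was not tested. The ratio of Prdm1 to Bcl6, whose product and Blimp-1 repress each other, spanned 0.0565 to 0.164 in WT and 0.0669 to 0.264 in IL-2-KO. Those ranges overlapped, and the exact permutation p was 0.286 (0.571 after adjustment over the 12 ratios). The ratio was 1.54-fold in IL-2-KO, and 1.63-fold without WT2 and KO3.

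Zeb2 (chromosome 2, 44983512 to 45117442) was, per kilobase of exon, the lowest of the 9 genes. It was at 0.419, 7.42, 0.461 and 0.121 CPM in WT, from 7, 88, 8 and 2 counts. In IL-2-KO it was at 2.61, 1.81, 25.3 and 2.18 CPM, from 39, 30, 470.5 and 39 counts (the recovered counts hold fractions of a read). WT2 was above 3 of the 4 IL-2-KO libraries, and KO3 was 11.6 times the median of the others in its group. The fitted 3.27-fold difference did not pass (95% interval 0.804 to 13.3, limma adjusted p = 0.221 by Benjamini-Hochberg). Without WT2 alone it passed at 5.77-fold (adjusted p = 0.0457), and without KO3 alone it was 1.86-fold (0.460). In the 6 other libraries the WT values of 0.121 to 0.461 CPM lay below the IL-2-KO values of 1.81 to 2.61 CPM. There the fold was 3.28 on the log2(CPM + 0.5) scale (limma adjusted p = 0.00206 by Benjamini-Hochberg), while the means were 0.333 ± 0.186 and 2.20 ± 0.403 CPM (SD, n = 3), since the added 0.5 compresses such low levels. In those same 6 libraries Lyz2 was at 0.23 to 0.569 CPM in WT and 1.34 to 2.85 in IL-2-KO. There 2 of the 4 monocyte markers tested were higher in IL-2-KO, beside 10.7% of all genes. With the summed monocyte markers of each library as a covariate, chosen after seeing the data, Prdm1 passed and Zeb2 did not (1.76-fold, limma adjusted p = 0.0595 by Benjamini-Hochberg). In that fit 6 of the 9 genes passed, beside 22.4% of all genes. What share of the Zeb2, Irf8, Bhlhe40 or Prdm1 signal those cells gave was not tested.

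Zeb2, Bhlhe40, Irf8 and Prdm1, 4 of the 9 genes, were at least 2 times the median of the rest of their group in both WT2 and KO3. Of all genes tested 2.01% met this. The excess in WT2 was 17.7 times for Zeb2, 5.02 for Bhlhe40, 3.87 for Irf8 and 2.67 for Prdm1. In KO3 it was 11.6, 3.69, 2.27 and 2.60 times. Irf4, Id2 and Tox were at 1.04 to 1.16 times there in both libraries. Tbx21 was at 1.85 times in WT2 but 1.04 times in KO3, and Eomes at 1.08 and 0.702 times.

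**Figure D3:**
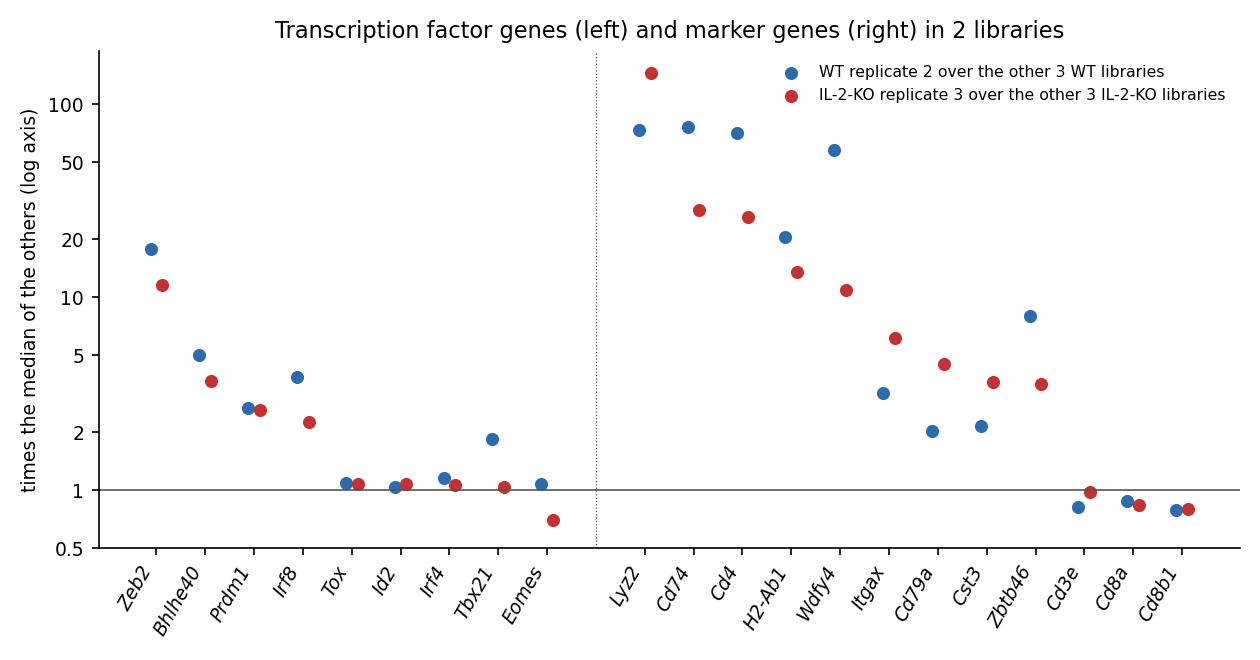
Level in WT2 and in KO3 as a multiple of the median of the other 3 libraries of the same genotype, on a log axis. Shown are the 9 transcription factor genes, marker genes of other cell types, and the CD8 T cell markers Cd8a, Cd8b1 and Cd3e. Zeb2, Bhlhe40, Irf8 and Prdm1 lie above 2 times in both libraries, as Lyz2, Cd74 and Cd4 do, while Irf4, Id2 and Tox lie close to 1.

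Id2 and Tox were abundant in both genotypes and did not pass. Id2 (chromosome 12, 25093799 to 25096092) was at 151, 158, 163 and 130 CPM in WT and at 192, 178, 191 and 137 CPM in IL-2-KO. Of the IL-2-KO libraries 3 were above all WT libraries, and KO4 lay among them. The fitted difference was 1.15-fold (95% interval 0.962 to 1.38, limma adjusted p = 0.253 by Benjamini-Hochberg), and without KO4 it was 1.24-fold with adjusted p = 0.0382. Its relative Id3, which favours memory precursor cells, was at 53.4 ± 8.34 CPM in WT and 57.2 ± 16.0 CPM in IL-2-KO (SD, n = 4). The ratio of Id2 to Id3 was 2.89 ± 0.687 in WT and 3.15 ± 0.481 in IL-2-KO (SD, n = 4), with an exact permutation p = 0.514 (0.754 after adjustment over the 12 ratios). It was 1.10-fold in IL-2-KO, and 1.06-fold without WT2 and KO3.

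Tox (chromosome 4, 6686353 to 6991557) was at 64.5, 69.9, 76.7 and 59.2 CPM in WT and at 71.8, 57.9, 77.5 and 79.0 CPM in IL-2-KO. The ranges almost coincided. The fitted difference was 1.06-fold, with a 95% interval of 0.884 to 1.26 (limma adjusted p = 0.678 by Benjamini-Hochberg), so a change above 1.26-fold lay outside the interval. Its relative Tox2, which acts with Tox in exhausted CD8 T cells and in follicular helper T cells, was at 0.277 ± 0.284 CPM in WT and 4.87 ± 1.85 CPM in IL-2-KO (SD, n = 4). Every WT value was under 1 CPM, so Tox2 passed the filter on low values through the IL-2-KO libraries alone. Tox2 was 6.91-fold higher (limma adjusted p = 2.70e-04 by Benjamini-Hochberg, and 2.93e-04 with no filter). This fold depends on the 0.5 added to the low WT levels, and was 15.1 with 0.1 added and 2.95 with 2 added, past the threshold in each case. The ratio of Tox to Tox2 lay between 101 and 882 in WT and between 10.6 and 19.6 in IL-2-KO, with no overlap. The WT ratios rest on very low Tox2 levels, and the exact permutation p was 0.0286, or 0.0857 after adjustment over the 12 ratios, which did not pass. The ratio was 0.153-fold in IL-2-KO, and 0.148-fold without WT2 and KO3.

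The sorted cell number divided the libraries into 4 from over 20 M cells (replicates 1 and 2 of each genotype) and 4 from under 2 M (replicates 3 and 4). These subsets hold 2 libraries a genotype, and 3.33% and 3.82% of all genes passed in them, 2.79% and 3.08% as higher. Irf4 was higher in both, by 2.72-fold and 3.05-fold (limma adjusted p = 0.00304 and 0.0169 by Benjamini-Hochberg). Eomes was 2.13-fold higher in the large samples (limma adjusted p = 0.00532 by Benjamini-Hochberg) and had a 2.23-fold difference that did not pass in the small ones (0.138). Tbx21 had differences of 2.44-fold and 2.38-fold, which did not pass in either (limma adjusted p = 0.0506 and 0.0917 by Benjamini-Hochberg). The folds of these 3 genes lay close together at both cell numbers, and limma gave an unadjusted p of 0.940 for Tbx21, 0.870 for Eomes and 0.440 for Irf4 for the difference of the 2 folds.

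Prdm1, Irf8, Bhlhe40 and Zeb2 had folds further apart in the 2 subsets. Prdm1 had a 1.30-fold difference in the large samples (limma adjusted p = 0.790 by Benjamini-Hochberg) and was 4.54-fold higher in the small ones (0.0282). Irf8 had a 1.88-fold difference in the large samples (limma adjusted p = 0.305 by Benjamini-Hochberg) and was 5.90-fold higher in the small ones (0.0345). Bhlhe40 had 3.52-fold (limma adjusted p = 0.359 by Benjamini-Hochberg) and was 10.2-fold higher in the small samples (0.0465). Zeb2 had 0.994-fold and 10.8-fold, neither of which passed (limma adjusted p = 0.997 and 0.150 by Benjamini-Hochberg). The large WT pair includes WT2 and the small IL-2-KO pair includes KO3, so cell number and the signal of other cell types cannot be told apart in these folds. The difference of the 2 folds itself passed for 0 genes in limma after Benjamini-Hochberg adjustment, and 1.67% of all genes had an unadjusted p under 0.05. Prdm1 (unadjusted p = 0.0149 in limma) and Irf8 (0.0410) were among the latter.

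**Figure D4:**
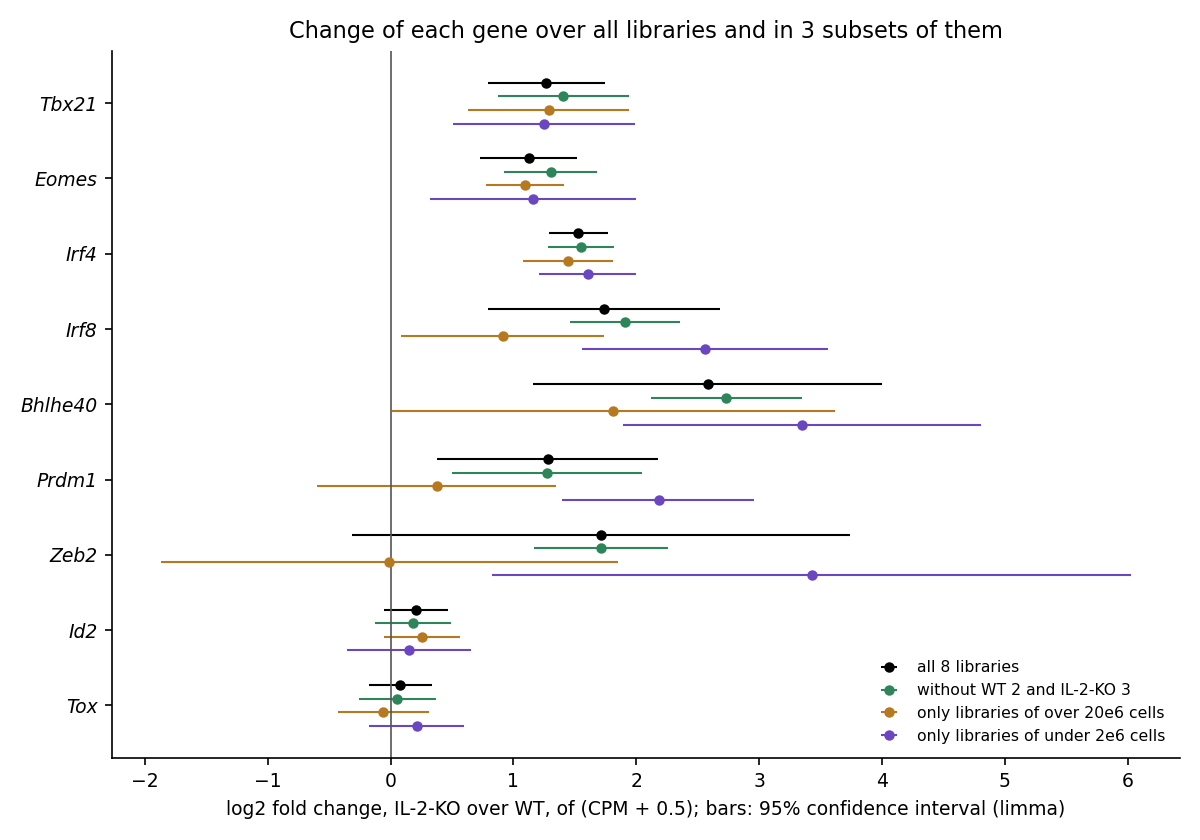
Log2 difference of IL-2-KO from WT with its 95% interval for each of the 9 transcription factor genes, in all 8 libraries, without WT2 and KO3, and in the subsets by sorted cell number. Irf4, Eomes and Tbx21 keep similar values, while Zeb2, Prdm1, Irf8 and Bhlhe40 have wide intervals over all 8 libraries and lie higher in the samples of under 2 M cells.

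Per kilobase of exon, which allows levels to be compared between genes, Id2 and Eomes led in both genotypes. In WT the mean CPM per kilobase rose from 0.184 for Zeb2 and 0.328 for Prdm1 through 4.14 for Bhlhe40, 5.05 for Irf4, 6.72 for Irf8 and 6.84 for Tbx21 to 17.1 for Tox, 35.6 for Eomes and 61.8 for Id2. The ranges of the top 3 did not overlap in WT, those of Bhlhe40, Irf4, Irf8 and Tbx21 all overlapped, and so did those of Zeb2 and Prdm1. In IL-2-KO the order was Zeb2 0.697, Prdm1 0.974, Irf4 14.7, Tbx21 16.1, Tox 18.1, Irf8 20.4, Bhlhe40 21.7, Id2 71.6 and Eomes 79.0 CPM per kilobase. Eomes, at 56.4 to 105.6, and Id2, at 56.4 to 78.9, overlapped there. The 5 genes from Irf4 to Bhlhe40 overlapped at least with their neighbours in this order. Several of these means rest on WT2 and KO3. Without KO3, Bhlhe40 was at 12.9 CPM per kilobase in IL-2-KO, below Irf4 at 14.4, and Zeb2 was at 0.192. Without WT2, the WT means were 1.89 for Bhlhe40, 0.0291 for Zeb2 and 4.23 for Irf8, which then lay below Irf4.

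Among the closest relatives of the 9 genes the interferon regulatory factors and Tox2 held all 4 calls. Of 21 relatives 17 were tested, of which 4 (23.5%, beside 11.1% of all genes) were higher, 0 were lower and 13 did not pass, and their median log2 difference was 0.00, beside -0.01 for all genes. Tox2 is described above. Irf7, an interferon-induced factor, was 2.28-fold higher (limma adjusted p = 6.08e-04 by Benjamini-Hochberg), and Irf2, an antagonist of Irf1, was 1.28-fold higher (0.00914). Irf1, an interferon-induced factor like Irf7, was 1.39-fold higher (limma adjusted p = 0.0294 by Benjamini-Hochberg), and its call was lost when any of 6 single libraries was left out. Zeb1, the paralog of Zeb2 that favours memory cells, had a 0.856-fold difference that did not pass (limma adjusted p = 0.133 by Benjamini-Hochberg). Without WT2 and KO3, 5 of the 17 were higher, beside 10.7% of all genes in that fit. The ratio of Zeb2 to Zeb1 was 0.00136 to 0.0722 in WT and 0.024 to 0.286 in IL-2-KO, ranges that overlapped, with an exact permutation p = 0.114 (0.274 after adjustment over the 12 ratios). It was 3.82-fold in IL-2-KO, and 3.84-fold without WT2 and KO3.

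**Figure D5:**
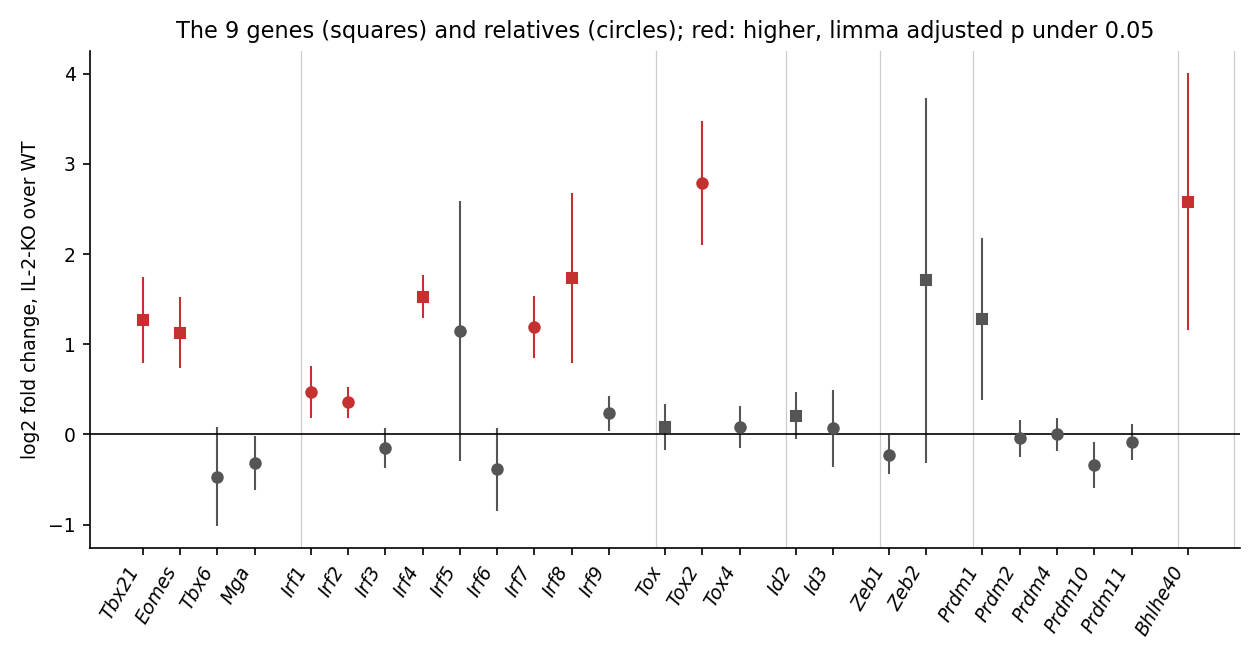
Log2 difference of IL-2-KO from WT for the 9 transcription factor genes and their tested relatives, grouped by family, with the 95% interval of limma as bars and those past the threshold in red. Tox2 lies far above Tox, and within the interferon regulatory factors Irf4 and Irf8 lie above the others that passed.

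Of 18 partner and cofactor genes of the 9 factors, 2 (11.1%) were higher, 2 (11.1%) were lower and 14 did not pass, shares close to those of all genes (11.1% and 8.03%). The median log2 difference was 0.06. Without WT2 and KO3, 2 were higher and 1 was lower, and 10.7% of all genes were higher in that fit. Ezh2, the methyltransferase of the Polycomb complex, was 1.60-fold higher and Batf 1.88-fold higher, as above (limma adjusted p = 4.13e-04 and 0.00313 by Benjamini-Hochberg). Runx1 fell to 0.715-fold and the histone demethylase gene Kdm6b to 0.778-fold (limma adjusted p = 0.0206 and 0.0413 by Benjamini-Hochberg). The call for Kdm6b was lost without any of 7 single libraries and without WT2 and KO3 together (adjusted p = 0.0595), and that for Runx1 without WT3 or WT4. Runx3, the factor that works with T-bet and Eomes in cytotoxic cells, had a 1.22-fold difference that did not pass (limma adjusted p = 0.160 by Benjamini-Hochberg).

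Of 20 receptors and signal transducers known to act upstream of the 9 factors, 8 (40%) were higher and 2 (10%) lower. Over all genes tested the shares were 11.1% and 8.03%, so the share lower was close to that of all genes. The median log2 difference of the 20 was 0.21. Il12rb1, a chain of the interleukin-12 receptor that induces T-bet, was 2.03-fold higher and the kinase gene Jak3 1.66-fold (limma adjusted p = 1.95e-04 for each by Benjamini-Hochberg). Ifngr2, the signalling chain of the interferon-gamma receptor, fell by 1.14 on the log2 scale (limma adjusted p = 0.00182 by Benjamini-Hochberg). Without WT2 and KO3 the counts were 8 higher and 1 lower, and 10.7% of all genes were higher in that fit (18% in either direction).

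Of 20 tested target genes of T-bet and Eomes, 14 (70%) were higher, 0 were lower and 6 did not pass. Over all genes tested, 11.1% were higher and 8.03% lower. The median log2 difference of the 20 was 1.60. The lead genes were Gzma, Gzmk and Gzmb, which encode granzymes, and Klrk1, which encodes the activating receptor NKG2D and was 4.23-fold higher (limma adjusted p = 1.21e-04 by Benjamini-Hochberg). Gzmb was at 0.75 ± 0.293 CPM in WT and 26.1 ± 19.8 in IL-2-KO (SD, n = 4). Gzmk and Fasl, also among the higher genes, were at most at 0.362 and 0.843 CPM in WT. They passed the filter on low values through the IL-2-KO libraries alone. Prf1, the gene of the pore-forming protein perforin, had a 1.16-fold difference that did not pass (limma adjusted p = 0.538 by Benjamini-Hochberg). The interferon-gamma gene Ifng was 3.16-fold higher (limma adjusted p = 0.0311 by Benjamini-Hochberg). Without WT2 and KO3, 16 of the 20 were higher, beside 10.7% of all genes in that fit. Of 4 natural killer cell markers tested, which share genes with cytotoxic T cells, 2 were higher. Their summed level was 7.03 to 22.2 CPM in WT and 16.4 to 56.7 in IL-2-KO. Tyrobp, also counted among the monocyte markers above, gave 11.9 CPM of the sum in WT2 and 34.8 CPM of that in KO3. In the libraries other than WT2 and KO3, 3 of the 4 were higher, and the sums were 7.03 to 7.77 CPM in WT and 16.4 to 29.5 in IL-2-KO, with no overlap. Their part in these levels was not tested.

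Another list held genes that Blimp-1, Zeb2 or Id2 restrain and targets of E proteins, 12 of them tested. Of these, 3 (25%) were higher, 1 (8.33%) was lower and 8 did not pass, beside 11.1% and 8.03% of all genes. The counts were 3 higher and 2 lower without WT2 and KO3, and 10.7% of all genes were higher in that fit. Socs3, a feedback inhibitor of cytokine receptors, was 2.57-fold higher (limma adjusted p = 0.00354 by Benjamini-Hochberg), and Cxcr5 and Bcl6 were the others that were higher. S1pr1, which lets T cells leave lymph nodes, was lower, at 0.593-fold (limma adjusted p = 6.31e-04 by Benjamini-Hochberg). Of 15 transcription factor genes of naive and memory precursor cells, 3 were lower (Lef1, Foxp1 and Bach2) and 0 were higher. The other 12, Tcf7, Id3 and Zeb1 among them, did not pass, and the counts were the same without WT2 and KO3. The call for Bach2 was lost without WT3, WT4 or KO2, and that for Bcl6 without WT4. Of 16 other factor genes of activated or exhausted cells, 8 were higher and 0 lower, and 7 were higher without WT2 and KO3. They included Rora at 2.13-fold and Maf, a partner of Blimp-1 in inducing inhibitory receptors, at 3.67-fold (limma adjusted p = 0.00757 and 0.0100 by Benjamini-Hochberg). Of 8 inhibitory receptor genes 7 were higher, with and without WT2 and KO3, with a median log2 difference of 2.52, and the remaining 1, Cd244a, had 0.863-fold (limma adjusted p = 0.624 by Benjamini-Hochberg).

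The likeness of other genes to each of the 9 was measured as the root mean square difference, over the 8 libraries, between log2 values centred on each gene's mean, among genes with a mean of at least 5 CPM. Smaller values mean a smaller difference, 2 genes that both vary little also have a small value, and no test is attached. Irf4 was most like Gbp10 (0.10), a guanylate-binding protein gene induced by interferon, and Tyms (0.10), the thymidylate synthase gene of DNA replication. Tbx21 was most like Dsg2 (0.19) and Cxcr5 (0.21), and Eomes like Aqp9 (0.15) and Chsy1 (0.17). Irf8 was most like Tbc1d4 (0.23) and Maf (0.25), and Bhlhe40 like Ctla4 (0.38). Zeb2 was most like Cacnb3 (0.35), H2-Ab1 (0.42), a class II antigen presentation gene, and Cybb (0.42), a gene of the phagocyte oxidase. These last were also high in WT2 and KO3, H2-Ab1 at 59.2 and 127 CPM. Prdm1 was most like Troap (0.30). Id2 and Tox varied little, so their small values, with Orc6 (0.08) and Mccc2 (0.07), show little beyond that. The same holds for Id2 with Tox (0.22), since KO4 was the lowest IL-2-KO library for Id2 and the highest for Tox. Within the other genes the smallest differences were those of Tbx21 with Irf4 (0.33) and with Eomes (0.35).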

How the data were processed

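Bulk RNA of sorted CD8 T cells was sequenced from a stranded total RNA kit, per the labels' protocols. The authors deposited a linear signal for every gene in every library, which the table's title names CPM of TMM-scaled library sizes. GRCm38, mm10, featureCounts, R 3.4.3 and limma 3.34.9 appear in the submitters' processing notes. The aligner, the annotation and the strand setting of the counting are not given in the sources used here. Eomes, Zeb2, Bhlhe40 and Tox overlap other annotated genes, and where counting ignored strand, reads of the overlap could be shared. Of the values under 20, between 54.6% and 65.0% in a library were whole reads (within 0.001 read), so no test of whole counts was run and the log2 test planned for CPM was kept.

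Entrez identifiers were matched to RefSeq symbols (11651 matched, 72 not), and exon lengths came from the GRCm38 annotation provided. Genes with at least 1 CPM in at least 4 of 8 libraries were kept, and log2(value + 0.5) was fitted with limma 3.58.1 in R 4.3.3 (empirical Bayes with trend), with Benjamini-Hochberg adjustment over all genes and a threshold of 0.05. For ratios an exact permutation test, two-sided, ran over 70 assignments. On simulated data for this comparison (11579 genes, 200 of them changed) the steps recovered 78.0% of genes changed 1.5-fold and 100% of those changed 2-fold, with 5.03% of calls false. The simulated squared coefficient of variation was 0.015, and these rates do not hold for genes that vary more, such as Zeb2, Prdm1, Bhlhe40 and Irf8. The design text calls the libraries biological replicates, and several WT libraries pool mice.

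The 9 genes, the gene lists, the ratios and the tests were chosen with earlier results of these data known. All 9 genes are named, and so are up to 4 genes of each list by smallest adjusted p, the partners in a ratio and the 3 most alike genes or fewer. Runx3, Prf1, Ifng, Fasl, Maf and Cd244a were named after their values were seen. Alternatives were other pseudocounts (0.1 and 2), filters (none, or at least 5 CPM) and scalings, each replicate left out, subsets of libraries, a replicate block, covariates and array weights. Some genes are not reported here.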

Additional observations from a re-analysis of the deposited data

Results flagged for a closer look

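Values of 1 library stood far from the other 3 of its group for Zeb2 and Bhlhe40, always in WT2 or KO3. Zeb2 was at 7.42 CPM in WT2 and at 25.3 CPM in KO3. Bhlhe40 was at 34.5 CPM in WT2 and at 152 CPM in KO3. The ratio of Zeb2 to Tbx21 stood apart in the same libraries, at 0.337 in WT2 and 0.629 in KO3, and so did that of Zeb2 to Zeb1, at 0.0722 and 0.286. In each case the gap to the nearest library divided by the range of the group was above the critical value of Dixon's test for 4 samples. For normally distributed values, chance puts about 1 in 20 groups past that limit, and the share of all genes past it was not computed. Here 4 of 18 groups of single genes and 4 of 24 groups of ratios were past it, and the ratios share the Zeb2 values. All of them lie in WT2 or KO3, so the groups are not independent and the counts cannot be set against the 1 in 20.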

How the results depend on the processing

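Irf4 kept its direction and its side of the threshold in all 21 alternative fits (log2 difference 1.45 to 1.61, adjusted p at most 0.0169), and Eomes did except in the small samples. Leaving out single replicates gave 3 to 7 of the 9 genes past the threshold, with 3 without WT3 or WT4, and 1285 to 2205 genes in all, against 2211. Without the libraries of under 2 M cells, 2 of the 9 genes and 384 genes passed, Zeb2 reversed to -0.0091 and Tox to -0.057. Without those of over 20 M, 441 genes passed, Id3 reversed to -0.023 and Tcf7 to -0.11. Fewer libraries were fitted in each of these. Array weights gave 4359 genes and 7 of the 9, adding Zeb2 (adjusted p = 0.0211) and Prdm1 (0.00233), with Tox at -0.012 and Tcf7 at -0.00012, and quantile normalization put Tcf7 at -0.027. A pseudocount of 0.1 gave 6 of the 9, adding Prdm1 (0.0496). The causes were not tested.

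With a pseudocount of 2 the log2 ratio of Zeb2 to Tbx21 reversed to -0.17 and that of Prdm1 to Tbx21 to -0.31. Leaving out single replicates also turned the direction of differences that had not passed. The log2 difference ran from -0.090 to 0.25 for Id3 and from -0.013 to 0.10 for Tcf7. The log2 ratio ran from -0.31 to 0.011 for Eomes to Tbx21, from -0.37 to 1.12 for Zeb2 to Tbx21 and from -0.31 to 0.25 for Prdm1 to Tbx21. It ran from -0.59 to 0.027 for Irf4 to Irf8 and from -0.066 to 0.14 for Tox to Tcf7.

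The replicate block gave 1397 genes past the threshold and the same number of the 9 genes, 5. Correlations of deviations between same-numbered libraries were 0.08, -0.53, -0.40 and 0.39. The highest correlation between any WT and IL-2-KO library was 0.66, for WT2 with KO3. The deviations these libraries share weigh on the values above, so the check cannot settle whether the numbers pair the samples. The fit with the summed monocyte markers as covariate was chosen after seeing the data, and 6 of the 9 genes passed in it. Depth limits Zeb2 and Prdm1, whose WT levels rest on as few as 2 and 16 counts.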
